A study of Mus musculus with 11 samples.

Results

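The NF-κB genes described here are the 5 subunit genes Rela, Nfkb1, Rel, Nfkb2 and Relb and the 5 inhibitor and regulator genes Nfkbia, Nfkbie, Tnfaip3, Nfkbiz and Bcl3. They were taken by gene name from the pancreas and adipose count tables and are 10 of the 55350 genes listed in these tables. All 10 are in both tables, and all 10 passed the filter on low counts in each tissue. The tables hold RNA sequencing counts from a mouse model of obesity-related alcohol-induced acute pancreatitis (OA-AP).

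Each group consists of male wild type mice with a labelled age of 16 weeks, given as C57BL/6 in the labels and as C57BL/6J in the study's methods. From an age of 4 to 5 weeks, control mice ate chow with 10 kcal% fat for 12 weeks and then received 2 intraperitoneal saline injections. OA-AP mice ate a high-fat diet with 60 kcal% fat for the same time and then received ethanol at 2 g/kg in each of 2 injections 1 h apart. Tissue was collected 12 h after the first injection. The pancreas libraries were 2 control and 3 OA-AP samples, and the epididymal adipose libraries 3 of each. Diet and ethanol changed together between the groups, so their effects cannot be told apart.

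NF-κB is a dimer built from subunits that share a DNA-binding Rel homology domain. In the canonical pathway, IκB proteins hold dimers such as RelA with p50 in the cytoplasm until the IKK kinases mark the IκB for degradation, while in the noncanonical pathway the p100 product of Nfkb2 is processed to p52, which pairs with RelB. Several of the brakes, IκBα and A20 among them, are themselves target genes of NF-κB, so the pathway limits its own activity. In acute pancreatitis the pathway is known for its activation in acinar cells and leukocytes, and in obese fat for its activation in adipocytes and macrophages.

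Pancreas libraries held 14188832 to 17238919 counts and adipose libraries 20825177 to 27928097. Levels are given as CPM, in which the libraries of a tissue are brought to the same size after correction by TMM factors. The factors were computed in each tissue apart, so CPM values cannot be compared between tissues. Levels were compared between tissues only in a joint fit of all 11 libraries. In CPM 1 count was worth 0.0522 to 0.0996 in the pancreas and 0.0339 to 0.0517 in adipose tissue. The scaling matters in the pancreas, where 35 acinar genes took 74.6% and 76.3% of the control counts and 57.7% to 59.7% of the OA-AP counts. With library totals alone, all tested pancreas genes had a median log2 fold change of 0.75, against 0.04 with TMM. In adipose tissue it was -0.16 against -0.01. One adipose library stood apart, since acinar genes took 0.979% of the counts in control replicate 2 and 0.0186% to 0.0260% in the others. Its summed level of 5 B cell markers was 42.9 CPM, against 6.88 and 12.6 CPM in the other control libraries. In the pancreas OA-AP replicate 3 had the highest summed level of 9 neutrophil markers, 103 CPM, against 3.60 and 13.8 CPM in the other OA-AP libraries. The 10 adipocyte markers summed to 118 to 139 CPM in control and 107 to 120 CPM in OA-AP pancreas, and of these Retn alone had no count in any pancreas library. Most of the sum was Lpl, with a mean of 84.3 CPM in control and 25.4 CPM in OA-AP, and Fabp4, with 30.8 and 47.9 CPM. Adipoq, Plin1, Lep, Cidec and Cfd had at most 4 counts in each pancreas library. These genes were named after their values were seen.

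Promoter sequence was available for 7 of the 10 genes, in 10 RefSeq windows on GRCm38.p6 that run from 250 bases before to 50 bases after a transcript start. The κB consensus, a motif of 10 letters searched on both strands with overlapping matches counted, was found in a window of 6 of the 7 genes. Of all 27025 genes with a window, 9.55% held it. Rela was the gene of the 7 without a match. The upstream stretches of 3 genes that bear on the contrast described below are shown 5′ to 3′ on the gene's strand with the matches in capitals. Rela is shown for its rise in the pancreas, and Nfkbia and Tnfaip3 because these inhibitor genes did not pass the test there. Bcl3 and Nfkb2, which rose in the pancreas, also held matches, as did Nfkbie, which did not pass. The stretches are chr19:5637291-5637482 on the plus strand for Rela, chr12:55492648-55492897 on the minus strand for Nfkbia and chr10:19015411-19015547 on the minus strand for Tnfaip3.
Rela: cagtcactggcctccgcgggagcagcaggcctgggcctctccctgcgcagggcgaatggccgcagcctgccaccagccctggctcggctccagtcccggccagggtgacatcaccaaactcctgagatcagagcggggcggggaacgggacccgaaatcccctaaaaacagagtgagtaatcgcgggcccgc
Nfkbia: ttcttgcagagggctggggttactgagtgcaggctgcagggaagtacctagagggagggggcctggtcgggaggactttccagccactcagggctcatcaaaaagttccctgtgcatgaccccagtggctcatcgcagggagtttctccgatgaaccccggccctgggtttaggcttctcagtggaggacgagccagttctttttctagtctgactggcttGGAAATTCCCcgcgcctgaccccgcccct
Tnfaip3: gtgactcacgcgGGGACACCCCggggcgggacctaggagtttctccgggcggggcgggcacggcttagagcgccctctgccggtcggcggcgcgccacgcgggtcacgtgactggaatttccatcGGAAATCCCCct
The match in Nfkbia began 29 bases before the start, and those in Tnfaip3 began 125 and 12 bases before it. A second Tnfaip3 window held none. Nfkb2 had 3 matches in its first window, 2 of them overlapping, and 3 or more matches were found in 0.186% of all 32851 windows. Its other 2 windows overlap each other and share a match. Rel held 2 overlapping matches 92 and 91 bases before the start, Nfkbie 1 match 106 bases before it and Bcl3 1 match at base 2 after it. These are matches of letters, and no binding was measured.

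In the pancreas 5 of the 10 genes rose in OA-AP and none fell, all 10 log2 fold changes being above 0 with edgeR and with DESeq2. Genes were called differentially expressed (DEGs) at an edgeR adjusted p-value under 0.05 with a change of 1.5-fold or more. Upregulated DEGs made up 16.2% of all 12884 tested pancreas genes, and DEGs of either direction 29.8%. The 5 were the subunit genes Rela, Relb and Nfkb2 and the atypical IκB genes Bcl3 and Nfkbiz. The classical inhibitor genes Nfkbia, Nfkbie and Tnfaip3 were not DEGs. The median log2 fold change of the 10 genes was 0.77, against 0.04 over all tested genes. With library totals alone, 9 of the 10 passed the same thresholds, where 45.3% of all tested genes did. All OA-AP libraries lay above all control libraries for 7 of the 10 genes, as they did for 32.9% of all tested genes.

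**Figure D1:**
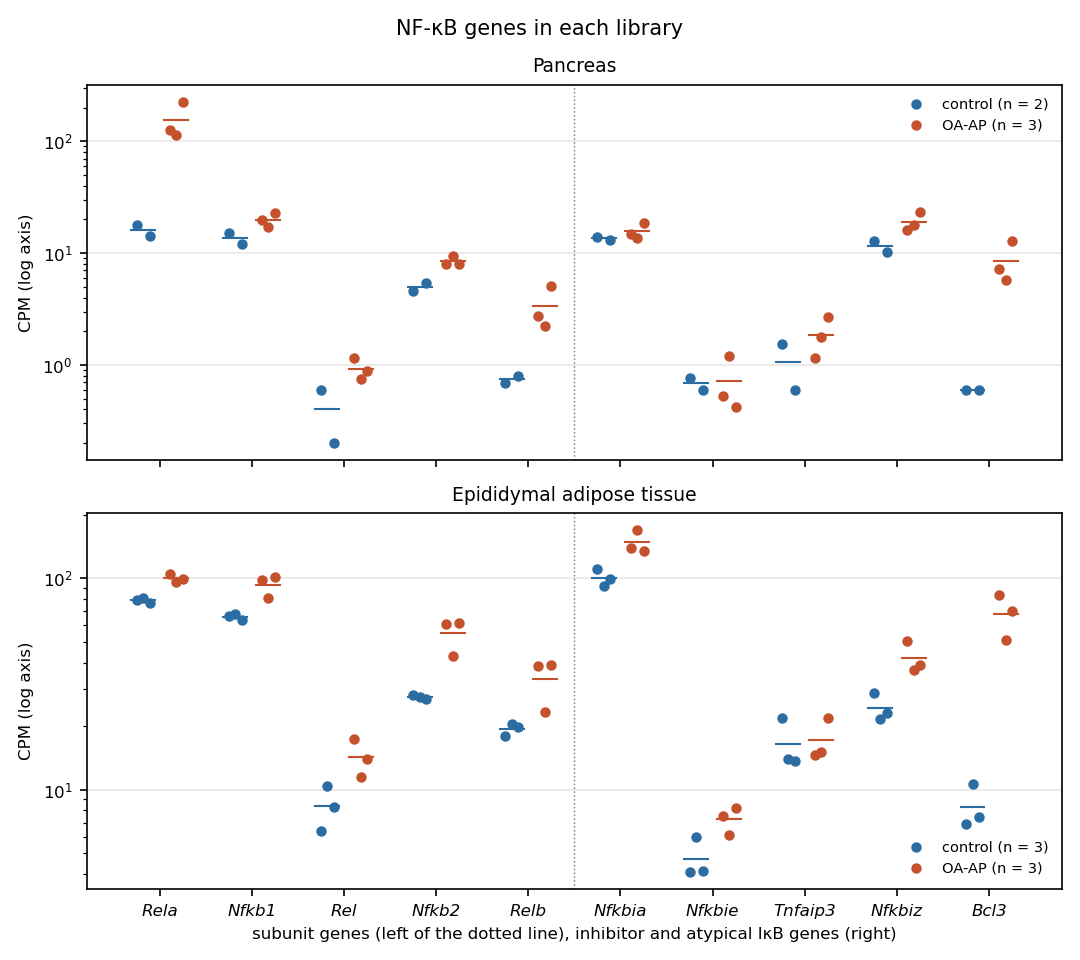
CPM of the 10 NF-κB genes in each library on a log axis, pancreas above and epididymal adipose tissue below, with control libraries in blue, OA-AP libraries in red and a line at each group mean. Pancreatic Rela lay at 14.3 to 17.8 CPM in control libraries and at 114 to 226 CPM in OA-AP libraries, while pancreatic Nfkbia overlapped between the groups.

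Rela (ENSMUSG00000024927, chr19:5637483-5648130, plus strand, GRCm38) encodes p65, the subunit that carries the transactivation domain of the canonical dimer. It was measured at 17.8 and 14.3 CPM in the control pancreas and at 126, 114 and 226 CPM in the OA-AP pancreas. The lowest OA-AP library was far above the highest control library. The log2 fold change was 3.27 (SE 0.354), a 9.64-fold increase (edgeR, adjusted p = 0.00106), and 1.68% of the tested genes had a larger one. Rela was a DEG under each of 12 alternative settings, with adjusted p-values of at most 0.0224. Without OA-AP replicate 3 its log2 fold change was 2.85.

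Relb (ENSMUSG00000002983, chr7:19606217-19629438, minus strand) encodes the noncanonical partner of p52. Its CPM was 0.686 and 0.797 in control libraries, each from 8 counts, and 2.73, 2.23 and 5.07 in OA-AP libraries. The groups did not overlap, and the log2 fold change was 2.17 (SE 0.504, adjusted p = 0.0134). Nfkb2 (ENSMUSG00000025225, chr19:46304737-46312090, plus strand), the p100 and p52 gene, had 4.54 and 5.38 CPM in control and 8.02, 9.37 and 8.04 CPM in OA-AP libraries. Its groups were also apart, by a smaller log2 fold change of 0.77 (SE 0.206, adjusted p = 0.0224). Both calls were lost with either control library left out. Without control replicate 1 or 2 the adjusted p was 0.107 or 0.0921 for Relb and 0.153 or 0.0851 for Nfkb2, and without OA-AP replicate 1 or 2 and with DESeq2 Nfkb2 was no DEG either.

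Nfkb1 (ENSMUSG00000028163, chr3:135584655-135691547, minus strand) encodes p105, the precursor of the canonical partner p50. It had 15.3 and 12.0 CPM in control libraries and 19.8, 17.0 and 23.0 CPM in OA-AP libraries. The groups did not overlap, but the log2 fold change of 0.55 (SE 0.187, adjusted p = 0.0539) passed neither threshold. It passed both with library totals, with no filter on low counts and without OA-AP replicate 2. Rel (ENSMUSG00000020275, chr11:23736847-23770970, minus strand), the c-Rel gene known from lymphoid cells, had 7 and 2 counts in control libraries and 22, 13 and 17 counts in OA-AP libraries. At this depth its log2 fold change of 1.17 had a 95% interval from -0.25 to 2.59 (adjusted p = 0.179).

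Among the inhibitors, Nfkbia (ENSMUSG00000021025, chr12:55489410-55492647, minus strand) encodes IκBα, the main cytoplasmic anchor of the RelA dimer. It had 13.9 and 13.1 CPM in control libraries and 14.9, 13.8 and 18.4 CPM in OA-AP libraries. The groups overlapped, and the log2 fold change was 0.22 with a 95% interval from -0.18 to 0.62 (adjusted p = 0.367). With library totals alone it was 0.91 and passed the thresholds. Nfkbie (ENSMUSG00000023947, chr17:45555703-45563169, plus strand), the IκBε gene, had 9 and 6 counts in control and 10, 21 and 8 counts in OA-AP libraries. Its 95% interval from -1.42 to 1.51 covered changes of either sign, so its direction was not resolved at this depth. Tnfaip3 (ENSMUSG00000019850, chr10:19000910-19015657, minus strand) encodes A20, a ubiquitin-editing brake upstream of IKK. It had 1.54 and 0.597 CPM in control libraries, from 18 and 6 counts, and 1.15, 1.77 and 2.66 CPM in OA-AP libraries. The groups overlapped, and the log2 fold change was 0.77 with a 95% interval from -0.49 to 2.04 (edgeR, adjusted p = 0.306). With library totals alone Tnfaip3 passed the thresholds.

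The atypical IκB proteins act in the nucleus on promoter-bound p50 and p52. Bcl3 (ENSMUSG00000053175, chr7:19808462-19822770, minus strand), which can turn such homodimers into activators, had 0.60 and 0.597 CPM in control libraries, from 7 and 6 counts. In OA-AP libraries it had 7.13, 5.71 and 12.7 CPM, from 136, 100 and 244 counts. The groups were clearly apart, and the log2 fold change of 3.82 (SE 0.492, adjusted p = 0.00125) was the largest of the 10 genes in this tissue. Bcl3 was a DEG under each of 11 alternative settings, with adjusted p-values of at most 0.0299. Nfkbiz (ENSMUSG00000035356, chr16:55811375-55838899, minus strand), the IκBζ gene, had 12.8 and 10.2 CPM in control and 16.1, 17.8 and 23.3 CPM in OA-AP libraries. The groups did not overlap and the log2 fold change was 0.73 (SE 0.207, adjusted p = 0.0284), but it was no DEG without either control replicate, without OA-AP replicate 3 or with the replicate number as a block. The antisense gene Gm16174 lies within Bcl3 and was counted 3 to 6 times in control and 52 to 79 times in OA-AP libraries. The strand setting of the counting is not given in the sources used here, so reads of the 2 genes cannot be told apart. Rela, Relb, Rel, Nfkbia, Nfkbie, Nfkbiz and Tnfaip3 overlap no gene in GENCODE M21. Nfkb1 overlaps Gm43430, which had at most 1 count in each pancreas and at most 3 in each adipose library. Nfkb2 overlaps AC114539.1 and, by 299 bases at its 3′ end, Psd in GENCODE M21, both on the other strand. The deposited Nfkb2 ends at base 46312090 and Psd starts at base 46312087, so the deposited gene shares fewer bases with Psd. Psd was counted 46 and 47 times in control and 38 to 60 times in OA-AP pancreas, beside 53 and 54 and then 153 to 164 counts on Nfkb2, and reads in the overlap cannot be told apart either.

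OA-AP replicate 3, the pancreas library with the most neutrophil marker RNA, also had the highest Rela, Relb, Bcl3, Nfkbiz, Nfkb1, Nfkbia and Tnfaip3 levels. Without it the log2 fold change was 1.69 for Relb and 3.36 for Bcl3, both still DEGs. The summed level of 4 pan-leukocyte markers was 7.77 to 8.40 CPM in control and 6.57 to 19.5 CPM in OA-AP libraries, that of the neutrophil markers 1.20 to 1.99 CPM and 3.60 to 103 CPM, and that of 10 macrophage markers 45.2 to 92.3 CPM and 72.3 to 76.2 CPM. None of the 4 pan-leukocyte and 7 tested neutrophil markers was a DEG (edgeR), with 0 and 1 at an unadjusted p-value under 0.05. Of the macrophage markers 1 of 10, Csf1r, was downregulated. The part of these cells in the NF-κB gene levels was not tested. In bulk tissue, more cells of a type and more RNA per cell cannot be told apart.

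In epididymal adipose tissue 5 of the 10 genes rose and none fell, and here too all 10 log2 fold changes were above 0 with both tools. Upregulated DEGs made up 12.1% of all 15839 tested adipose genes and DEGs of either direction 25.1%. The 5 were Bcl3, Nfkb2, Relb, Nfkbiz and Rel. Rela, Nfkb1 and Nfkbia had adjusted p-values under 0.05 with fold changes under 1.5, so 8 of 10 genes passed at any fold, where 19.4% of all tested genes were higher at any fold. All OA-AP libraries lay above all control libraries for 9 of the 10 genes, as for 26.4% of all tested genes. The median log2 fold change of the 10 was 0.70, against -0.01 over all tested genes. With library totals alone 4 of the 10 passed both thresholds, where 8.74% of all tested genes did. Each of the 10 genes had at least 111 counts in each adipose library.

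Adipose Bcl3 had 6.92, 10.6 and 7.40 CPM in control libraries and 83.4, 50.9 and 70.0 CPM in OA-AP libraries. The groups were far apart, with a log2 fold change of 3.04 (SE 0.241), an 8.22-fold increase (edgeR, adjusted p = 0.000524), and 0.871% of the tested genes had a larger one. Its antisense gene Gm16174 was counted 9 to 17 times in control and 36 to 40 times in OA-AP libraries, against 188 to 251 and 1062 to 1614 counts on Bcl3. Nfkbiz had 28.7, 21.7 and 23.0 CPM in control and 50.7, 36.7 and 38.8 CPM in OA-AP libraries. Its groups did not overlap either, with a log2 fold change of 0.78 (SE 0.160, adjusted p = 0.00945). Both genes were DEGs under each of 13 alternative settings.

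Of the noncanonical pair, Nfkb2 had 28.2, 27.5 and 26.8 CPM in control libraries and 61.0, 42.9 and 61.5 CPM in OA-AP libraries. It was 2.00-fold higher in OA-AP (log2 fold change 1.00, SE 0.146, adjusted p = 0.00281) and a DEG under each of 13 alternative settings. Relb had 17.9, 20.6 and 19.9 CPM in control and 38.4, 23.3 and 39.0 CPM in OA-AP libraries. OA-AP replicate 2 was the lowest OA-AP library for both genes, and for Relb it was close to the control libraries. The log2 fold change of Relb was 0.79 (SE 0.199, adjusted p = 0.0207). Relb was no DEG without control replicate 1 or 3 or OA-AP replicate 1 or 3.

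Rela had 79.0, 80.8 and 76.4 CPM in the control adipose tissue and 105, 96.4 and 99.0 CPM in the OA-AP adipose tissue. The spread within groups was small and the groups were apart, yet the change was only 1.27-fold (log2 fold change 0.35, SE 0.0814, adjusted p = 0.0153). Nfkb1 had 66.5, 67.7 and 63.6 CPM in control and 98.0, 80.5 and 101 CPM in OA-AP libraries, a 1.41-fold increase (adjusted p = 0.0110). Rel had 6.37, 10.5 and 8.32 CPM in control and 17.5, 11.5 and 14 CPM in OA-AP libraries. The highest control and lowest OA-AP values of Rel were close, and its log2 fold change of 0.77 (SE 0.226, adjusted p = 0.0333) fell below the thresholds in 6 of 13 alternative settings. The control library with the highest Rel was replicate 2, which also had the most B cell marker RNA. Without it the log2 fold change of Rel was 0.97.

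Adipose Nfkbia, the most abundant of the 10 genes per length, had 111, 92.6 and 99.1 CPM in control and 140, 169 and 135 CPM in OA-AP libraries. It rose 1.47-fold (SE of the log2 fold change 0.122, adjusted p = 0.0124), just under the fold threshold. Nfkbie had 4.08, 5.96 and 4.14 CPM in control and 7.55, 6.14 and 8.21 CPM in OA-AP libraries, and its log2 fold change of 0.63 missed the p-value threshold (SE 0.211, adjusted p = 0.0521). Tnfaip3 was the gene of the 10 whose adipose groups overlapped, with 21.8, 14.03 and 13.7 CPM in control and 14.7, 15.1 and 21.9 CPM in OA-AP libraries. Its log2 fold change was 0.06 with a 95% interval from -0.49 to 0.62 (adjusted p = 0.855), and its direction turned under other settings.

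Markers of other cell types moved in the same adipose libraries. All 6 tested neutrophil markers were upregulated, their summed level being 7.03 to 12.8 CPM in control and 179 to 197 CPM in OA-AP libraries. The 4 pan-leukocyte markers summed to 182 to 266 CPM and 204 to 305 CPM, with 1 of 4, Cd53, upregulated. The 10 macrophage markers summed to 1182 to 1507 CPM and 1282 to 1936 CPM, with 4 upregulated (Cd68, Mrc1, Cd163 and Itgam) and Csf1r downregulated. All 5 B cell markers were downregulated, from 6.88 to 42.9 CPM to 1.71 to 2.67 CPM. The 10 adipocyte markers summed to 53003 to 55332 CPM and 40208 to 49170 CPM. Their part in the changes of Bcl3, Nfkb2, Relb, Nfkbiz and Rel was not tested. The marker genes named in this paragraph, like Csf1r in the pancreas, were chosen after their values were seen.

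**Figure D2:**
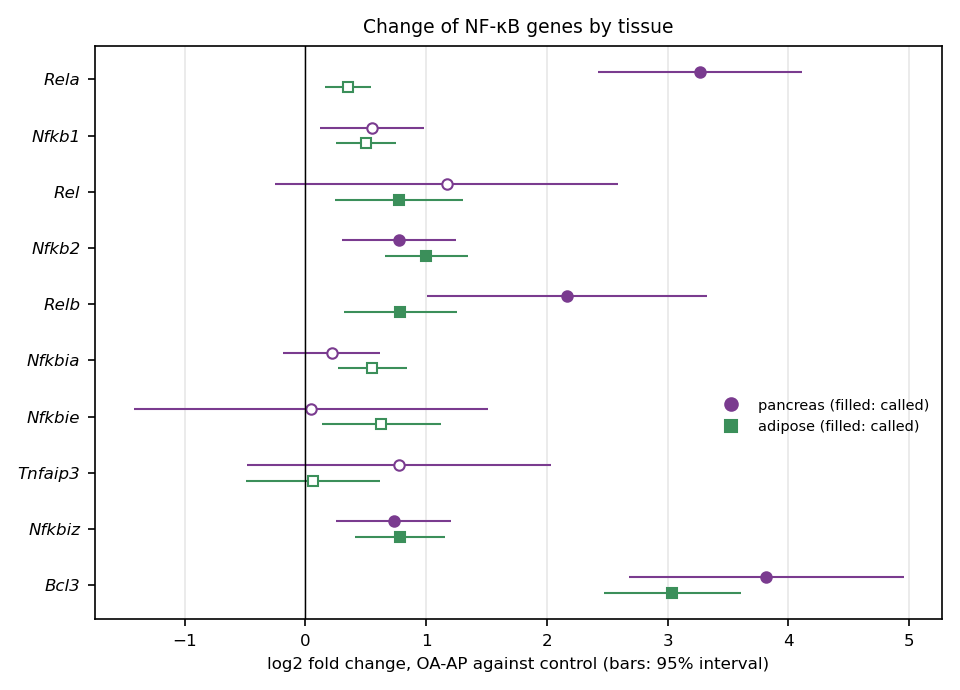
Log2 fold change of OA-AP against control for each gene, with circles for the pancreas, squares for adipose tissue, filled symbols for DEGs and bars for the 95% interval. Rela is at 3.27 in the pancreas and 0.35 in adipose tissue, while the intervals of every other gene overlap between the tissues.

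Whether the change differed between tissues was tested with a tissue by condition term over all 11 libraries. Rela alone passed (edgeR, adjusted p under 0.05), where 10.5% of the 17046 tested genes had a lower log2 fold change in adipose tissue at that threshold and 21.3% differed in either direction. The log2 fold change of Rela was 2.93 lower in adipose tissue than in the pancreas (difference -2.93, SE 0.344, adjusted p = 0.000203). It passed under all 19 alternative settings, with adjusted p-values of at most 0.00343. Relb had the next largest difference, -1.41 with a 95% interval from -2.60 to -0.22 (adjusted p = 0.0894), and passed with library totals and without pancreas OA-AP replicate 2. The difference was -0.81 for Bcl3, with an interval from -2.23 to 0.62, so a difference of either sign is within the error. For Nfkb2 it was 0.21 (-0.30 to 0.72), for Nfkbiz 0.04 (-0.57 to 0.64) and for Nfkbia 0.33 (-0.14 to 0.80). With library totals alone these last 3 values were negative, while the median difference of all tested genes moved from -0.06 to -0.88.

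**Figure D3:**
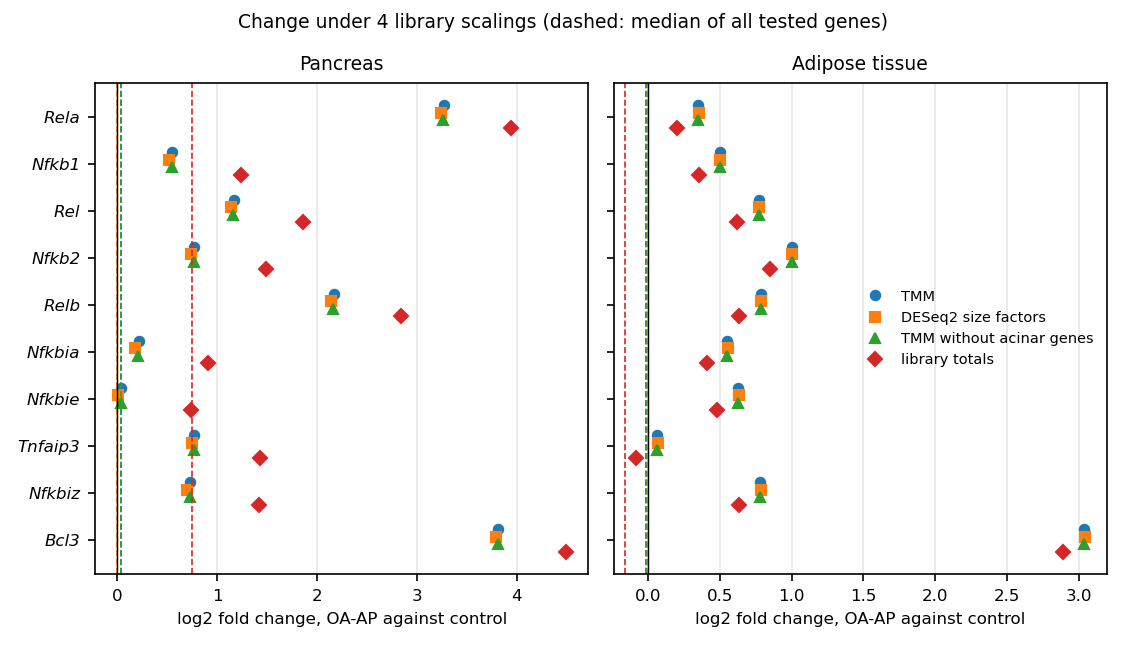
Log2 fold change of each gene under 4 library scalings, pancreas left and adipose tissue right on separate axes, with a dashed line at the median of all tested genes under each scaling. Library totals moved the pancreas median from 0.04 to 0.75 and all 10 genes with it, while Rela and Bcl3 stayed far above the median under every scaling.

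In control mice 6 of the 10 genes differed between tissues in the fit of all 11 libraries, a share close to that over all tested genes. Rela was not among them (log2 difference 0.32, edgeR, adjusted p = 0.300). Relb, Rel, Tnfaip3, Bcl3 and Nfkbia were higher in adipose tissue, by log2 2.75, 2.37, 1.94, 1.81 and 0.93, and Nfkbiz was lower by log2 0.88 (difference -0.88, adjusted p = 0.00332). With library totals alone the median over all tested genes moved from 0.22 to 2.67 and Nfkbiz to 1.58, below that median under both scalings. Of all tested genes, 29.4% were higher and 26.0% lower in control adipose tissue, 55.5% in all.

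Because every gene of a library shares its scaling factor, ratios within a library do not depend on it. Per-length levels, and the order and shares built on them, do depend on the deposited gene length. This length ran from 1.61 kb for Nfkbia to 12.061 kb for Nfkb1, and transcript lengths were not measured. Divided by the deposited gene length, control pancreas held 8.62 and 8.16 CPM per kb of Nfkbia, 6.56 and 5.28 of Rela, 2.55 and 2.02 of Nfkbiz, 1.38 and 1.64 of Nfkb2 and 1.27 and 0.991 of Nfkb1. These levels did not overlap between neighbours in this order. Bcl3, Nfkbie, Relb, Tnfaip3 and Rel followed at 0.253 CPM per kb or less, and of these neighbours only Rel, with 0.080 and 0.027, did not overlap the gene before it. In OA-AP pancreas Rela had 46.4, 42.0 and 83.2 CPM per kb and was the most abundant, above Nfkbia at 9.25, 8.55 and 11.5 CPM per kb.

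Rela made up 28.0% to 30.8% of the summed per-length level of the 10 genes in control pancreas and 67.8% to 75.1% in OA-AP pancreas. Nfkbia made up 40.4% to 43.3% and 10.3% to 13.8%. In adipose tissue Rela moved the other way, from 22.3% to 24.7% in control libraries to 17.8% to 18.2% in OA-AP libraries. Bcl3 moved in one direction in both tissues, from a mean of 1.21% to 4.23% in the pancreas and from 2.73% to 13.4% in adipose tissue. These shares depend on each other, since they sum to the whole.

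**Figure D4:**
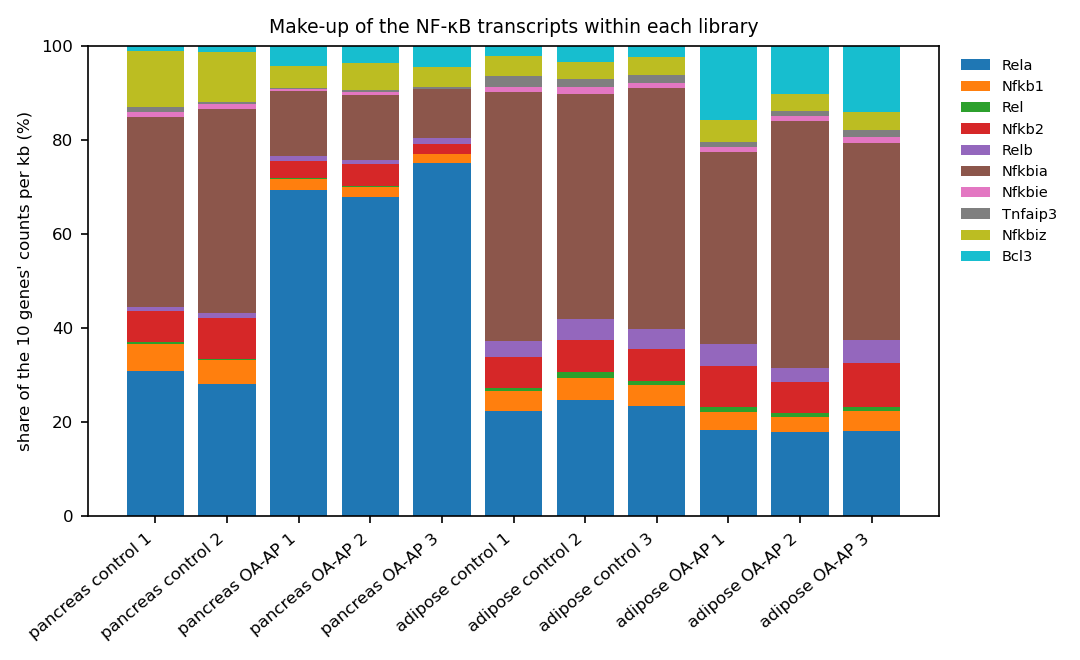
Share of each gene in the summed counts per kb of the 10 NF-κB genes, one bar per library, with the pancreas on the left and adipose tissue on the right. Rela widened from 28.0% to 30.8% in control pancreas to 67.8% to 75.1% in OA-AP pancreas, and Bcl3 from a mean of 2.73% to 13.4% in adipose tissue.

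The per-length ratio of Rela to its inhibitor gene Nfkbia was 0.761 and 0.647 in control pancreas and 5.01, 4.91 and 7.26 in OA-AP pancreas. In adipose tissue it was 0.422, 0.517 and 0.457 in control and 0.447, 0.338 and 0.433 in OA-AP libraries. Only the pancreas groups were apart, with an exact two-sided permutation p of 0.1, the smallest this design allows, against 0.4 in adipose tissue. The ratio of Rela to its partner gene Nfkb1 was 5.19 and 5.33 in control pancreas, close to the 5.28 to 5.33 of control adipose tissue. It was 28.2, 29.7 and 43.7 in OA-AP pancreas and 4.77, 5.32 and 4.35 in OA-AP adipose tissue. The size of this ratio rests on the deposited lengths of 2.716 kb for Rela and 12.061 kb for Nfkb1. Without the lengths the control means were close, at 16.1 and 13.6 CPM in the pancreas and 78.7 and 65.9 CPM in adipose tissue. Nfkb2 per Nfkb1 rose in adipose tissue, from 1.49 to 1.56 in control to 1.95 to 2.28 in OA-AP libraries without overlap (exact permutation p = 0.1), and overlapped in the pancreas (p = 0.5).

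Genes around the pathway were counted from 5 lists with 93 genes in all. The counts stand beside shares over all tested genes of 16.2% that rose and 13.5% that fell in the pancreas, and of 12.1% that rose and 25.1% of either direction in adipose tissue. The pancreas counts rest on 2 control libraries. With each library left out in turn, DEGs numbered 1 to 4 receptors, 4 to 8 signal proteins, 0 to 4 kinase genes, 1 to 7 brakes and 3 to 10 target genes there. Of the pancreas genes named below, Tnfrsf12a, Ltbr, Tlr2, Tab1, Ikbke, Tnip1, Otud7b, Zfp36, Commd1, Ccl7 and Irf1 were no DEGs without control replicate 1, nor without control replicate 2, and Irak1 was none without control replicate 2. Upstream, 4 of 8 tested receptor genes rose in the pancreas and none fell, also at an unadjusted p-value under 0.05 and with DESeq2. Tnfrsf1a, the main TNF receptor, averaged 17.1 ± 0.375 CPM (SD, n = 2) in control libraries against 65.8 ± 22.9 CPM (SD, n = 3) in OA-AP libraries and rose by log2 1.95. Tnfrsf12a, the TWEAK receptor, rose by log2 3.84. Ltbr, the lymphotoxin β receptor that feeds the noncanonical pathway, rose by log2 1.03 and Tlr2 by 1.37. Tlr2 was also no DEG without OA-AP replicate 2 or 3. In adipose tissue 7 of 10 receptor genes rose and 1 fell. Il1r1, the interleukin-1 receptor, averaged 49.2 ± 11.1 CPM in control and 516 ± 36.0 CPM in OA-AP libraries (SD, n = 3 each), so it rose by log2 3.39. Tnfrsf12a rose by log2 2.91, Tnfrsf1a by 1.10 and Ltbr by 0.79. The gene that fell was Tnfrsf13c, the BAFF receptor of B cells, by log2 2.27 (log2 fold change -2.27), beside the 5 B cell markers.

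Of the receptor-proximal signal proteins, 7 of 18 tested genes rose and 1 fell in the pancreas. Birc3, the ubiquitin ligase cIAP2 (log2 fold change 2.25), Myd88, the adaptor of Toll-like and interleukin-1 receptors (2.43), Ripk1, the kinase at the TNF receptor (1.21), and Bcl10, a CARD adaptor (1.40), rose most clearly. Irak1 fell (-0.72). In adipose tissue 5 of 21 rose, with Myd88 at 1.63, Card9 at 0.72, Traf3 at 0.71 and Ripk1 at 0.69. Of the 11 genes of the IKK kinases and their adaptors, 1 rose and 1 fell in the pancreas, and 2 rose and 1 fell in adipose tissue. DEGs of either direction were thus 18.2% and 27.3%, against 29.8% and 25.1% of all tested genes. The IKK-related kinase gene Ikbke moved in opposite directions, with a log2 fold change of -1.20 in the pancreas and 0.70 in adipose tissue. Tab1 rose in the pancreas (0.75), where neither Tab1 nor Ikbke was a DEG without OA-AP replicate 1. In adipose tissue Map3k8, the kinase Tpl2, rose (1.57) and Tab3 fell (-1.45).

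Further IκB proteins and brakes included 7 of 14 tested genes that rose and 1 that fell in the pancreas, and 6 of 16 that rose and 1 that fell in adipose tissue. Tnip1, a partner of A20, rose in both, by log2 1.95 in the pancreas and 1.53 in adipose tissue. In the pancreas Tax1bp1 (1.10), Otud7b (0.74) and Zfp36 (3.26), which encodes a protein that destabilizes cytokine mRNA, rose, and Commd1 fell (-1.32). In adipose tissue Zc3h12a, the regnase-1 gene, rose by 1.65, Nfkbib, the IκBβ gene, by 1.13 and Tnip2 by 0.87, while Pdlim2 fell (-0.71).

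Among known NF-κB target genes, 6 of 25 tested rose and 1 fell in the pancreas. DEGs of either direction were 28% of these, against 29.8% of all tested genes. The median log2 fold change was 2.93. It was the same with the 2 genes at 0 in both control libraries set to their bound against 3 counts per library. Both bounds lie above that median, so setting them could not move it. Other genes were left as fitted, such as Cxcl2 and Il6, with at most 1 count in each control library. Both passed the filter on low counts only through OA-AP libraries, with 2 to 435 and 4 to 241 counts there. So did the 2 genes at 0, and Cxcl1, Ccl2, Ccl7 and Saa3, with at most 1, 2, 1 and 4 counts in each control library. The median thus depends on genes that the filter kept through OA-AP libraries. Lcn2, the iron-binding lipocalin, averaged 0.848 ± 0.350 CPM (SD, n = 2) in control libraries and 195 ± 103 CPM (SD, n = 3) in OA-AP libraries. Saa3, an acute-phase protein gene, and Gadd45b rose by log2 5.62 and 3.39. The chemokine gene Ccl7 had at most 1 count in each control library and at least 28 in each OA-AP library (adjusted p = 0.00841). Irf1 fell (-0.92). In adipose tissue 20 of 33 rose and 2 fell, with a median of 1.96. Sod2, the mitochondrial superoxide dismutase, averaged 131 ± 19.1 CPM in control and 578 ± 28.7 CPM in OA-AP libraries, and Ptx3, a pentraxin gene, averaged 1.25 ± 0.287 CPM and 285 ± 170 CPM (SD, n = 3 each). The neutrophil-attracting chemokine Cxcl5 and the granulocyte growth factor Csf3 had at most 3 counts in each control library and at least 974 and 34 in each OA-AP library. The genes that fell were Cd83 (-1.78) and Ccl5 (-1.54). Irak1, Commd1, Pdlim2, Irf1, Cd83, Ccl5 and Tnfrsf13c are named because they fell and were chosen after their values were seen. Of the 76 pathway genes tested in the pancreas 29 were DEGs, against 12 of 79 without control replicate 1 and 9 of 81 without control replicate 2.

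**Figure D5:**
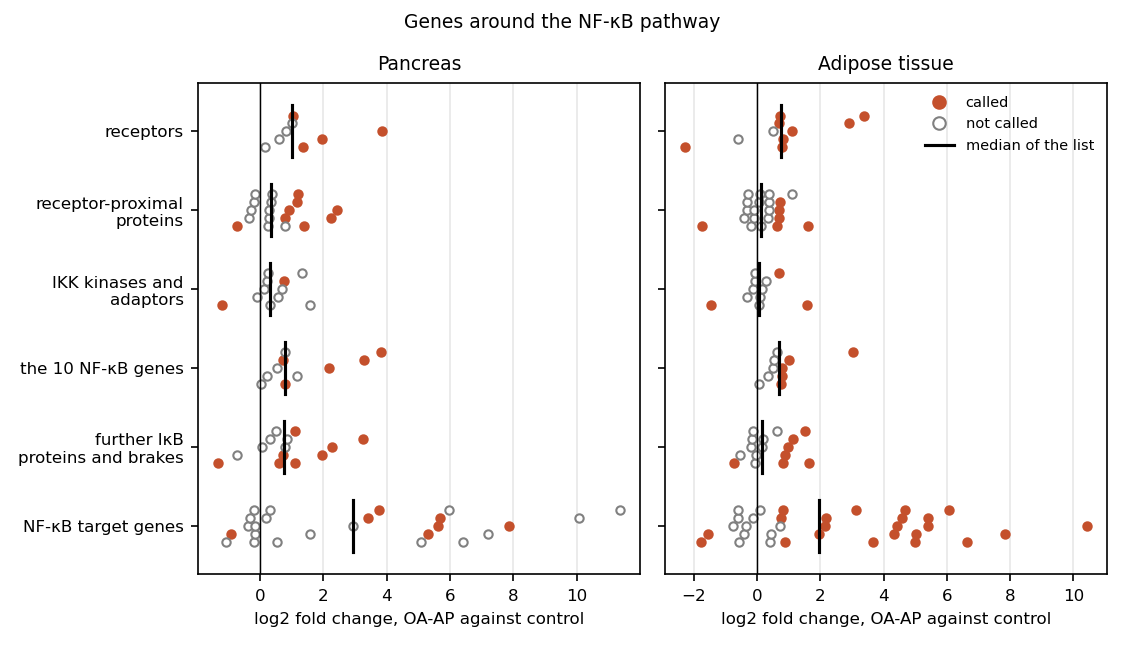
Log2 fold change of each tested gene of the pathway lists and of the 10 NF-κB genes, with the pancreas left and adipose tissue right. Filled points are DEGs, open points are not, and the black bar is the median of the list, 2.93 in the pancreas and 1.96 in adipose tissue for the target genes.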

How the data were processed

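Total RNA of the 11 pancreas and adipose samples was sequenced as paired-end libraries. The authors trimmed the reads with Trim Galore (0.6.6), checked them with fastp (0.20.1), mapped them to GRCm38 with STAR, counted them on genes with featureCounts (2.0.1) and deposited raw whole-number counts per gene. The annotation and the strand setting are not given in the sources used here, and reads carried no molecular identifiers, so they are not independent molecules. Intervals cover the spread between these libraries only. Samples were grouped by their labels. The labels do not name the mouse behind each library, so p-values measure the spread between libraries.

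Low counts were filtered with filterByExpr and libraries scaled with TMM in edgeR (4.0.16, R 4.3.3). Each tissue was tested apart with the quasi-likelihood test (robust) and Benjamini-Hochberg adjustment over all tested genes. DEGs passed an adjusted p-value of 0.05 and changed 1.5-fold or more. Tissues were compared in 1 fit of all 11 libraries, where the tissue by condition term needed an adjusted p-value under 0.05 at any fold. SE was the absolute log2 fold change over the root of the F statistic. Ratios within a library were compared with exact two-sided permutation tests. Per-length levels use the gene length that the authors deposited beside the pancreas counts. Of the 10 genes, 9 had the same start and end in GENCODE M21, and Nfkb2 did not. The tests were checked on simulated data. Alternatives included DESeq2 (1.42.0), other scalings, filters and fold thresholds, a replicate block and each library left out in turn.

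The NF-κB genes, the 5 pathway lists and the 9 cell marker lists were chosen with earlier results of these data known. All 10 NF-κB genes are given in each tissue, with at most 4 DEGs of lowest p-value from each pathway list and tissue, and markers as summed levels and counts. One result among the pathway lists is not reported here.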

Additional observations from a re-analysis of the deposited data

Results flagged for a closer look

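Rela is given a closer look because its change differed between the tissues by a direct test. Its log2 fold change in adipose tissue was 2.93 lower than that in the pancreas (difference -2.93, SE 0.344, edgeR tissue by condition term, adjusted p = 0.000203). In the pancreas the control levels of 14.3 to 17.8 CPM became 114 to 226 CPM in OA-AP. In adipose tissue, which was scaled apart, 76.4 to 80.8 CPM became 96.4 to 105 CPM. All 3 OA-AP libraries were higher than every control library of the same tissue in both tissues. Between the control tissues Rela did not pass in the joint fit (log2 difference 0.32, SE 0.254, edgeR, adjusted p = 0.300). The pancreas library with the highest Rela, OA-AP replicate 3, also had the highest neutrophil marker level, and without it the difference was -2.56. No group held 4 or more libraries, so single libraries were not tested for standing apart from their group.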

How the results depend on the processing

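In the pancreas 5 of the 10 NF-κB genes were DEGs, 9 with library totals alone, 3 of the 5 still tested with at least 10 counts in every sample, and 3 with a fold change of at least 2. Leaving out each library in turn gave 2 to 5, with 2 without control replicate 1 or 2. Rela was a DEG under each alternative, and Bcl3 under each that tested it, which the filter of at least 10 counts in every sample did not. In adipose tissue 5 genes were DEGs, 2 with a fold change of at least 2, 8 with no fold threshold, and 3 to 7 with each library left out, with 3 without control replicate 3. The change of 1 gene differed between tissues, and 1 to 2 with each library left out, with 2 without pancreas OA-AP replicate 2. With library totals 6 differed, where the median difference of all tested genes was -0.88. Between control tissues 6 genes differed, where 55.5% of all tested genes did. It was 3 of 5 tested with at least 10 counts in every sample, and 4 to 6 with each library left out. With library totals all 10 differed, where the median difference of all tested genes was 2.67. Of the 76 pathway genes tested in the pancreas 29 were DEGs, where 29.8% of all tested genes were. With library totals it was 50, all of them higher, where 45.3% of all tested genes were higher DEGs. It was 22 to 32 with each OA-AP library left out, and the counts rest on 2 control libraries. Of 91 tested in adipose tissue 46 were DEGs, where 25.1% of all tested genes were. It was 30 with a fold change of at least 2 and 40 to 45 with each library left out. The share over all tested genes was not computed in the fits with a library left out.

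Some directions turned. Pancreatic Nfkbie was -0.12 to 0.25 with each library left out, lowest without control replicate 2. Adipose Tnfaip3 was -0.084 with library totals and -0.14 to 0.32 with each library left out. With library totals the difference between tissues turned for Nfkb2 (-0.64), Nfkbia (-0.51), Nfkbie (-0.26) and Nfkbiz (-0.79), and control Nfkbiz turned to 1.58. The medians of all tested genes moved from -0.06 to -0.88 and from 0.22 to 2.67, so those 4 genes stayed above the first and control Nfkbiz below the second. With each library left out that difference was -0.26 to 0.11 for Nfkb1, -1.46 to 0.14 for Rel and -0.15 to 0.21 for Nfkbiz.

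Deviations from the group mean had r from -0.16 to 0.06 between same-numbered control and OA-AP libraries of a tissue. Such deviations cancel out within these small groups, so r cannot decide whether the numbers pair anything. With the replicate number as a block 4 genes were DEGs in each tissue, without Nfkbiz in the pancreas and Rel in adipose tissue, and 1 differed between tissues. Same-numbered pancreas and adipose libraries had r from -0.05 to 0.13, and the block of these, chosen after seeing the data, put the difference for Rela at -2.89. The 2 control pancreas libraries held under 10 counts of Relb, Rel, Nfkbie and Bcl3 each, which limits the pancreas values of these genes.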

Other observations

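The tissue by condition test was also read for the genes around the pathway. Among the receptor-proximal signal proteins, 6 of 21 tested genes had a lower log2 fold change in adipose tissue than in the pancreas and 2 a higher one. For the IKK kinases and adaptors these counts were 3 and 1 of 11, for the further IκB proteins and brakes 4 and 1 of 16, for the receptors 0 and 1 of 10 and for the target genes 2 and 3 of 33. Over all tested genes 10.5% had a lower and 10.8% a higher log2 fold change in adipose tissue, and a lower value can be a larger change downward. Il1r1 was the receptor, with a log2 fold change 2.55 higher in adipose tissue, and Ikbke the kinase, at 1.89 higher. Zfp36 (-2.28), Tax1bp1 (-0.95), Otud7b (-0.88) and Nfkbil1 (-0.80) were the brakes with a lower value in adipose tissue and Commd1 (1.15) that with a higher one, Commd1 having fallen in the pancreas. Tab3 (-2.15), Tab1 (-1.08) and Chuk (-0.51) were the kinase genes with a lower value, Tab3 having fallen in adipose tissue. Gadd45b (-2.52) and Bcl2l1 (-3.32) were the target genes with a lower value in adipose tissue, and Sod2 (2.29), Csf1 (2.35) and Cflar (0.77) those with a higher one. Irak1 (0.61) and Traf3 (0.98) were the signal proteins with a higher value. These genes were chosen after their values were seen.

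Of the remaining marker lists, 20 of 35 acinar genes fell in the pancreas, where 13.5% of all tested genes fell, and none rose, while none of the 4 acinar genes tested in adipose tissue was a DEG (edgeR), with 2 lower at an unadjusted p-value under 0.05. In the pancreas none of the 6 fibroblast markers was a DEG, with 1 higher at an unadjusted p-value under 0.05, 1 of 5 endothelial markers (Kdr) fell, and of the 4 adipocyte markers tested there Plin4 and Lipe rose and Lpl fell. No T cell or B cell marker passed the filter on low counts in the pancreas. In adipose tissue 5 of 6 fibroblast markers fell (Col1a1, Col1a2, Col3a1, Dcn and Lum), 2 of 6 T cell markers fell (Cd3e and Cd3g), none of the 5 endothelial markers was a DEG, with 2 higher at an unadjusted p-value under 0.05, and of the adipocyte markers Lep rose and Plin1, Cfd and Lpl fell. These genes too were chosen after their values were seen.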
